A study of Mus musculus with 9 samples.

Results

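Cytosolic antioxidant enzymes and genes controlled by the transcription factor Nrf2 were examined in the mouse cochlea, the hearing organ of the inner ear. The 10 genes were Nfe2l2, which encodes Nrf2, and Sod1, Cat, Gpx1, Gpx4, Srxn1, Nqo1, Hmox1, Gclc and Gclm. They were found through the annotation of the Affymetrix array, on which a gene is read by groups of short probes called probe sets. Every probe set annotated with exactly 1 gene symbol among the 10 was taken, which gave 22 probe sets of 10 genes, out of 34945 single-symbol probe sets of 18193 genes. A filter on low signal (the 40th percentile of mean signal) left 19 of the 22 probe sets and 9 of the 10 genes, and 13702 genes overall. Hmox1 was the gene that did not pass. The genes lie on chromosome 2 (Nfe2l2, Cat and Srxn1), chromosome 3 (Gclm), chromosome 8 (Nqo1 and Hmox1), chromosome 9 (Gpx1 and Gclc), chromosome 10 (Gpx4) and chromosome 16 (Sod1). Each gene is represented below by its brightest probe set, and its further probe sets are numbered by falling brightness.

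The calorie-restricted group (CR) was 15 months old and had received 62 kcal per week since the age of 2 months, a cut in intake of 26%. The middle-age control group (MC) was also 15 months old, and the young control group (YC) was 4 months old. Both control groups received 84 kcal per week. All mice were male C57BL/6, a strain known for hearing loss early in adult life, were housed singly, and carried no transgene or deletion that the labels name. Each sample pooled 4 cochleae of 2 mice and was measured on 1 array, with 3 arrays per group, so a value is a mean over mice and over all cell types of the dissected tissue. The series text gives n = 3 per group and also states that there were no replicates. The 3 pools of a group were taken as its replicates, and p-values measure the spread between these pools. The comparison of MC with YC addressed age, and that of CR with MC addressed restriction.

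Nrf2 is held in the cytoplasm and marked for breakdown by Keap1, and when oxidants modify Keap1 it enters the nucleus, pairs with small Maf proteins and binds antioxidant response elements near its target genes. Among the targets, Gclc and Gclm encode the catalytic and the modifier subunit of glutamate-cysteine ligase, the rate-limiting enzyme of glutathione synthesis. Srxn1 encodes sulfiredoxin, which repairs overoxidised peroxiredoxins, Nqo1 a quinone reductase, and Hmox1 the inducible haem oxygenase. Sod1 turns superoxide into hydrogen peroxide in the cytosol, Cat and Gpx1 remove hydrogen peroxide, and Gpx4 reduces lipid peroxides in membranes. Oxidative damage is a long-studied candidate contributor to the loss of hair cells and neurons in the ageing cochlea.

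Promoter windows of 300 bases, from 250 before to 50 after the transcription start, were available from RefSeq (GRCm38.p6) for 8 of the 10 genes, the others being Hmox1 and Gclc. The core of the antioxidant response element was searched as TGACNNNGC on both strands. It was present in the windows of 4 of the 8 genes, namely Nfe2l2, Sod1, Srxn1 and Gclm, and in 14% of the 27025 genes with a window (12.4% of 32851 windows). The windows of Cat, Gpx1, Gpx4 and Nqo1 did not hold these letters. The related AP-1 type core TGAGTCA, searched on both strands after the Srxn1 window had been seen, was present in 1 of the 8 genes and in 5.95% of the 27025 genes. That gene was Srxn1, with a match at bases 149 to 155 and another at bases 206 to 212, and neither overlapped the longer motif. As the shorter motif was chosen after that window had been seen, its share among the 8 genes is no separate observation. A match of letters is a description of the window and was not tested as a binding site. The windows of Nfe2l2, Gclm and Srxn1 are shown because the factor itself, the gene pair that differed most between the 15-month groups and the gene whose probe sets disagreed most are read through them, with the searched motifs in capitals. They lie at chr2:75704614-75704913 (minus strand) for Nfe2l2, chr3:122245307-122245606 (plus strand) for Gclm and chr2:152105274-152105573 (plus strand) for Srxn1, and each is written 5′ to 3′ along the strand of its gene. TGACNNNGC matched at bases 11 to 19 in Nfe2l2 on the strand shown, and on the opposite strand at bases 117 to 125 in Gclm and bases 279 to 287 in Srxn1.
Nfe2l2: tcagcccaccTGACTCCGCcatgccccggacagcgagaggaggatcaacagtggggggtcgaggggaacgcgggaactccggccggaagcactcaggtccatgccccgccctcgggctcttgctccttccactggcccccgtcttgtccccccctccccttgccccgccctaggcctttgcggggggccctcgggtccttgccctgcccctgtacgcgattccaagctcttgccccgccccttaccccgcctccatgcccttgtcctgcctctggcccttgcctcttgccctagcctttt
Gclm: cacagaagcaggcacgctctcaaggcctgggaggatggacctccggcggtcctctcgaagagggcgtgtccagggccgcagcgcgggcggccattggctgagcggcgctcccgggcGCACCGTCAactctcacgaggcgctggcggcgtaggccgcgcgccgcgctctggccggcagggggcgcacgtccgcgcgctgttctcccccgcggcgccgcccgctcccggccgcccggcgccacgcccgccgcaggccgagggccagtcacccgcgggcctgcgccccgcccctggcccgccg
Srxn1: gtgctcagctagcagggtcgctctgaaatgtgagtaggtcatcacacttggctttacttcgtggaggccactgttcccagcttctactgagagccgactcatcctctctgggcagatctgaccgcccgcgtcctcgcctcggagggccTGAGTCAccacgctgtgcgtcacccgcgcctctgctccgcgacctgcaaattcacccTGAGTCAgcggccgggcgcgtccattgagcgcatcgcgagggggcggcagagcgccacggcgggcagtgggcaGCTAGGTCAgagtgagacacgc

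The arrays differed in their deposited signal before any group was compared. The 3 CR arrays and YC 1 had median signals of 526.8 to 626.6, and the 3 MC arrays, YC 2 and YC 3 had medians of 842.4 to 1103.9. These are called the low and the high class below, a division by signal and not by any batch named in the labels. After quantile normalization of log2(signal + 16), array pairs within the low class correlated at 0.908 to 0.942, pairs within the high class at 0.703 to 0.872, and pairs across at 0.528 to 0.839, over all probe sets that passed the filter. Because every CR array was low and every MC array high, class and restriction cannot be told apart between CR and MC directly. A fit with class as a term takes its size from the 3 YC arrays, of which only YC 1 was low. YC 2, the array with the highest median, was the lowest of the 9 for Nfe2l2, Nqo1 and Gclm. A comparison with YC is therefore also given without YC 2 where that moved the value by over 1.5 times or turned its sign. Low values on YC 2 also enter the class term of these genes, and class-term values without YC 2 are not given. All log2 values below are normalized log2(signal + 16), a scale that understates the change of dim probe sets.

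None of the 9 measured genes passed the threshold between CR and MC (limma, Benjamini-Hochberg adjusted p under 0.05 over all probe sets), against 0.139% of all 13702 genes. The 2 genes furthest apart were the subunits of glutamate-cysteine ligase, Gclc and Gclm, both with higher values in CR. Of the 9 genes, 5 had a positive and 4 a negative log2 change, with a median of 0.08 against 0.06 over all genes. At an unadjusted p under 0.05 there was 1 gene, Gclc, and the share among all genes was 17.3%. In 3 genes, Nfe2l2, Gclc and Gclm, the CR and MC arrays did not overlap, each time with CR above, and 36.6% of all genes showed no overlap in either direction. Both shares of the 9 genes, 11.1% and 3 of 9, were thus not above those over all genes.

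Gclc (probe set 1455959_s_at) had log2 values of 12.14, 11.61 and 12.13 in CR and of 10.64, 11.33 and 9.82 in MC, with 12.25, 10.76 and 11.29 in YC. Every CR array lay above every MC array, whereas YC spread over both. The log2 change for CR over MC was 1.37 ± 0.45 (SE, n = 3 arrays per group), a 2.58-fold difference, with an adjusted p of 0.189. The further probe set of Gclc, 1424296_at, gave 12.09, 12.37 and 11.66 in CR against 10.37, 11.31 and 9.44 in MC, again without overlap, and a log2 change of 1.67 ± 0.52 (adjusted p = 0.183). The probe sets of Gclc therefore gave the same direction and similar sizes in this fit. The suffix of the brightest one, _s_at, marks probes that can match transcripts of several genes. With arrays weighted by their agreement with their group, the log2 change of Gclc was 1.22 and its adjusted p 0.0277, but the estimate of these weights stopped before it converged. With these weights 3397 of all 27022 probe sets were called, against 25 in the main fit.

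Gclm (probe set 1418627_at), the partner subunit, had log2 values of 12.41, 12.59 and 11.60 in CR and of 10.73, 11.51 and 10.32 in MC, with 12.70, 9.33 and 11.82 in YC. The CR arrays lay above the MC arrays, with CR 3 and MC 2 only 0.09 apart, and YC held both the highest and the lowest array of the 9. The log2 change for CR over MC was 1.35 ± 0.71, with an adjusted p of 0.324. Probe set 2 of Gclm (1439050_at) varied less, with 11.20, 11.07 and 10.80 in CR, 9.76, 10.34 and 10.12 in MC, and 10.92, 10.81 and 10.80 in YC. On it, MC lay below both other groups without overlap, and the log2 change for CR over MC was 0.95 ± 0.29 (adjusted p = 0.18).

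Array class bore on the ligase genes unevenly. With class as a term, the log2 change for CR over MC was 0.14 ± 0.68 for Gclc and 1.08 ± 0.94 for its probe set 2. For Gclm it was -0.78 ± 1.06, turned in sign, and for its probe set 2 it was 0.84 ± 0.50. The brightest probe set of Gclm was at 12.70 on YC 1, 9.33 on YC 2 and 11.82 on YC 3, the arrays that set the class term. The low value of YC 2 thus enters the size of that term. The weaker class effect on probe set 2 of either gene was not tested against that on the brightest one.

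**Figure D1:**
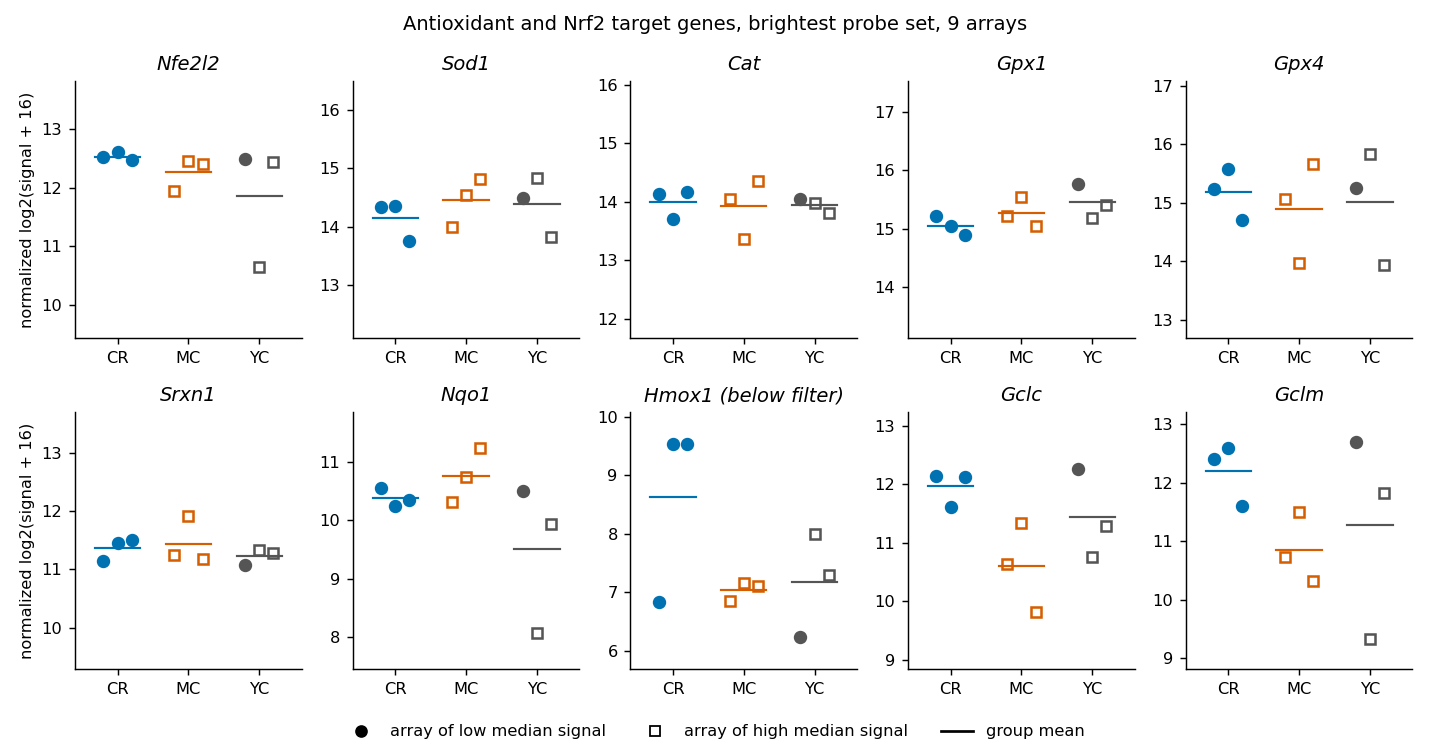
Normalized log2(signal + 16) of the brightest probe set of each of the 10 genes on the 9 arrays, by group (CR, MC, YC), with lines at the group means, filled circles for low-class and open squares for high-class arrays. Gclc and Gclm are higher on all 3 CR arrays than on the MC arrays, and single YC arrays stand far from their group for Nfe2l2, Nqo1 and Gclm.

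Nfe2l2, the gene of Nrf2 itself, had log2 values of 12.52, 12.61 and 12.47 in CR and of 11.94, 12.45 and 12.40 in MC, with 12.50, 10.64 and 12.44 in YC. CR lay above MC by as little as 0.02 between the nearest arrays, and apart from YC 2 all YC arrays lay among the CR and MC arrays. The log2 change for CR over MC was 0.27 ± 0.43 (95% interval -0.67 to 1.21, adjusted p = 0.735), and with class as a term it was -0.68 ± 0.71. The other Nfe2l2 probe set did not pass the signal filter. In a fit without the filter it gave a log2 change of -0.78 ± 0.73 for CR over MC and of 1.86 ± 0.73 for MC over YC, neither past the threshold (adjusted p = 0.603 and 0.995).

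Srxn1, the sulfiredoxin gene, was read by 4 probe sets that did not give the same picture. The brightest had log2 values of 11.14, 11.45 and 11.51 in CR, 11.24, 11.91 and 11.18 in MC and 11.08, 11.34 and 11.29 in YC, with all groups overlapping and a log2 change for CR over MC of -0.08 ± 0.27. Probe set 2 had 10.86, 10.42 and 10.43 in CR, 9.64, 9.35 and 10.03 in MC and 10.06, 9.61 and 9.90 in YC, so that CR lay above both controls. Its log2 change for CR over MC was 0.89 ± 0.35 (adjusted p = 0.229). Probe set 3 overlapped in all groups, with a log2 change of 0.16 ± 0.41.

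Probe set 4 of Srxn1 (1419942_at) ran the other way. It was the dimmest of the 4, and with a filter at the 60th percentile it was dropped. Its deposited signals were 186 to 465 in CR and 343 to 614 in YC, each below the median of its array. In MC they were 1533 to 1672, and how far probe set 4 passed the filter through the MC arrays was not tested. Probe set 4 had log2 values of 8.24, 9.22 and 8.14 in CR, of 10.53, 10.70 and 10.41 in MC and of 9.07, 8.74 and 8.45 in YC. All 3 MC arrays stood above the other 6 by more than 1 log2 unit, and the YC arrays of both classes lay together. The log2 change for CR over MC was -2.02 ± 0.46 and that for MC over YC was 1.80 ± 0.46, comparisons that share the MC arrays. The adjusted p was 0.145 for CR with MC and 1 for MC with YC. With class as a term the values were -2.49 ± 0.80 and 1.96 ± 0.50. With CR and MC alone in the fit, the adjusted p of the CR and MC contrast was 0.0291, and without array YC 2 it was 0.0427. Those settings called 1846 and 987 of all 27022 probe sets, against 25 in the main fit. The sources used here do not say which transcript each Srxn1 probe set reads, and the suffix of the brightest one marks probes that can match transcripts of several genes.

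**Figure D2:**
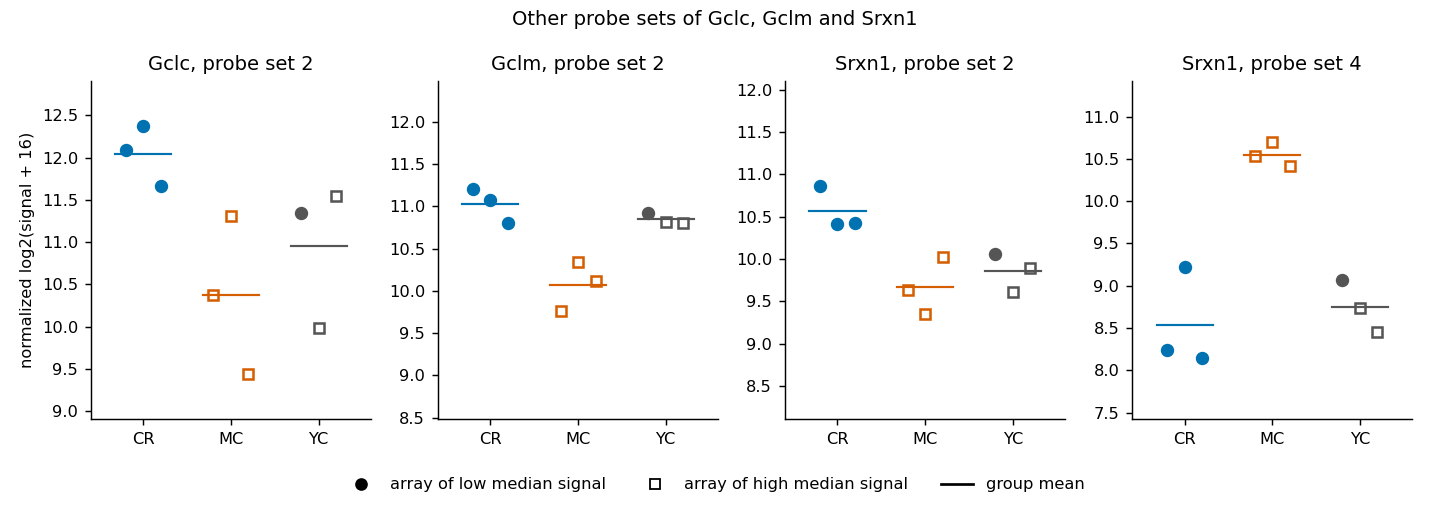
Normalized log2(signal + 16) of probe set 2 of Gclc and Gclm and of probe sets 2 and 4 of Srxn1 on the 9 arrays, by group (CR, MC, YC), with lines at the group means and symbols for array class as filled circles (low) and open squares (high). Probe set 4 of Srxn1 is high on the 3 MC arrays, at 10.41 to 10.70, against at most 9.22 on every other array.

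The enzymes that remove superoxide and peroxides did not pass the threshold between CR and MC, and their probe sets differed in sign or size. Sod1 had log2 values of 14.33, 14.36 and 13.75 in CR, 14.00, 14.54 and 14.82 in MC and 14.49, 14.83 and 13.82 in YC, all overlapping, with a log2 change for CR over MC of -0.31 ± 0.30 (95% interval -0.96 to 0.35). Its 4 probe sets past the filter were not of a single sign. Probe set 2 gave -0.57 ± 0.34 with the CR arrays below all MC arrays, and probe set 3 gave 0.49 ± 0.29 with the CR arrays above them. Probe set 4 gave 0.58 ± 0.43 with overlap, and no adjusted p of the 4 was below 0.374. A 5th probe set of Sod1 did not pass the signal filter. The suffix of probe set 2 of Sod1, _s_at, marks probes that can match transcripts of several genes.

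Cat, the gene of catalase, had log2 values of 14.13, 13.71 and 14.16 in CR, 14.04, 13.37 and 14.36 in MC and 14.04, 13.98 and 13.80 in YC. The groups overlapped and the log2 change for CR over MC was 0.08 ± 0.25, with a 95% interval of -0.47 to 0.63. Probe set 2 of Cat gave 0.58 ± 0.46, which turned to -0.61 ± 0.75 with class as a term. Gpx1 had log2 values of 15.21, 15.04 and 14.89 in CR, 15.21, 15.54 and 15.05 in MC and 15.76, 15.19 and 15.41 in YC. Its change for CR over MC was -0.22 ± 0.19 and its interval, -0.65 to 0.20, was the narrowest of the 9 genes. With class as a term the change of Gpx1 was -0.68 ± 0.32.

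Gpx4 was read by a bright probe set that scattered within groups and by one that did not. The brightest had log2 values of 15.24, 15.58 and 14.71 in CR, 15.07, 13.97 and 15.66 in MC and 15.25, 15.83 and 13.93 in YC, and a log2 change for CR over MC of 0.27 ± 0.50. Probe set 2 had 14.78, 14.81 and 14.88 in CR, 14.36, 14.35 and 14.37 in MC and 14.39, 14.38 and 14.71 in YC. On this probe set CR lay above both controls without overlap, and the SD of the 3 MC arrays was 0.01. Its log2 change for CR over MC was 0.46 ± 0.15, with an adjusted p of 0.19, and 0.62 ± 0.27 with class as a term. The suffix of the brightest Gpx4 probe set marks probes of which some can match unrelated sequences, and that of probe set 2 marks probes shared by variants of the same gene.

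Nqo1, the quinone reductase gene, had log2 values of 10.55, 10.24 and 10.35 in CR, 10.31, 10.75 and 11.24 in MC and 10.50, 8.07 and 9.94 in YC. CR and MC overlapped, and their log2 change was -0.38 ± 0.56 (adjusted p = 0.717), or -1.88 ± 0.86 with class as a term. Hmox1, read by 1 probe set that did not pass the filter, had log2 values of 6.84, 9.53 and 9.53 in CR, 6.85, 7.16 and 7.11 in MC and 6.24, 7.99 and 7.30 in YC. CR 2 and CR 3 lay above all 6 control arrays and CR 1 lay within them. In a fit without the filter its log2 change for CR over MC was 1.60 ± 0.84 (adjusted p = 0.357).

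**Figure D3:**
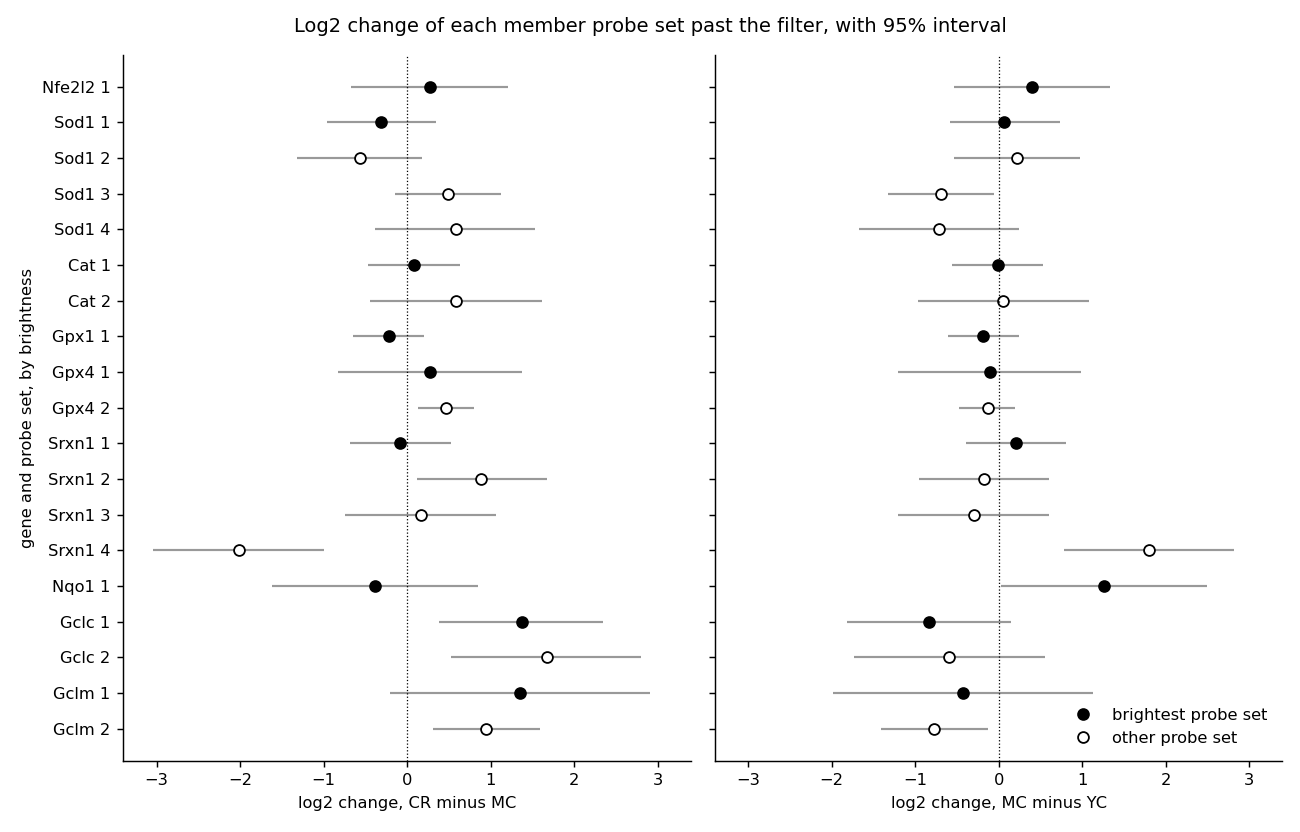
Log2 change of each of the 19 probe sets past the filter with its 95% interval, for CR minus MC on the left and MC minus YC on the right, with filled points for the brightest probe set of a gene. The probe sets of Gclc and of Gclm share a sign within each comparison, and those of Sod1 and Srxn1 do not.

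Between MC and YC, the age comparison, none of the 9 genes passed the threshold in limma, as for all 13702 genes (0%). At an unadjusted p under 0.05 there was 1 of the 9, Nqo1, against 2.95% of all genes. None of the 9 had groups that did not overlap, against 5.57% of all genes. The log2 change was positive for 4 genes and negative for 5, with a median of -0.01 against 0.03 over all genes. Nqo1 had a log2 change of 1.26 ± 0.56 (adjusted p = 1), which was 0.55 without YC 2 and 1.76 ± 0.54 with class as a term. Gclc had -0.84 ± 0.45, which was -1.17 without YC 2, -0.43 without YC 1 and -0.45 without MC 3. Gclm had -0.43 ± 0.71, and Gclm was -1.41 without YC 2 and 0.28 ± 0.66 with class as a term. Probe set 2 of Gclm had -0.77 ± 0.29 with the MC arrays below all YC arrays, and -0.79 without YC 2. Nfe2l2 had 0.40 ± 0.43, which was -0.21 without YC 2. Sod1, Cat, Gpx1, Gpx4 and Srxn1 lay between -0.19 and 0.21, or between -0.32 and 0.31 without YC 2, and probe set 3 of Sod1 gave -0.69 ± 0.29 with the MC arrays below all YC arrays.

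Between CR and YC, which differ in both age and diet, none of the 9 genes passed the threshold in limma, with 0% of all genes called and none of the 9 at an unadjusted p under 0.05, against 11.2% of all genes. None of the 9 had groups without overlap, against 21.2% of all genes. The log2 change was positive for 7 genes and negative for 2, with a median of 0.17 against 0.07 over all genes. The widest were 0.92 ± 0.71 for Gclm, 0.88 ± 0.56 for Nqo1 and 0.67 ± 0.43 for Nfe2l2, and without YC 2 these were -0.06, 0.16 and 0.06. Gclc had 0.53 ± 0.45, or 0.19 without YC 2, and its probe set 2, with CR above all YC arrays, 1.08 ± 0.52, or 0.59 without YC 2. The smallest adjusted p among the 9 genes was that of Gpx1 at 0.463, with a log2 change of -0.41 ± 0.19, or -0.26 without YC 1. The change of Gpx1 was -0.54 without YC 2 and -0.71 ± 0.25 with class as a term. An F test over the 3 groups called none of the 9 genes and 0% of all genes, and 3226 of all 27022 probe sets, with and without a gene name, had an unadjusted p under 0.05 in it.

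Class as a term moved some of the 9 genes much further than others. The term is set by YC 1 against YC 2 and YC 3. YC 2 was the lowest YC array for Nfe2l2, Gpx1, Nqo1, Gclc and Gclm, and how far YC 2 alone set the moves was not tested. For CR over MC the median log2 change of the 9 was -0.47 with the term, with 2 genes positive, against 0.08 and 5 positive without it, while the median over all genes was -0.09 with the term. For CR over YC the median was -0.12 with 2 genes positive, and for MC over YC it was 0.13 with 7 positive. Gclc, Nqo1 and Gclm moved by over 1 log2 unit in the CR and MC comparison, and Sod1, Cat, Gpx4 and Srxn1 by less than 0.4. None of the 9 was called with the term in any of the 3 comparisons.

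**Figure D4:**
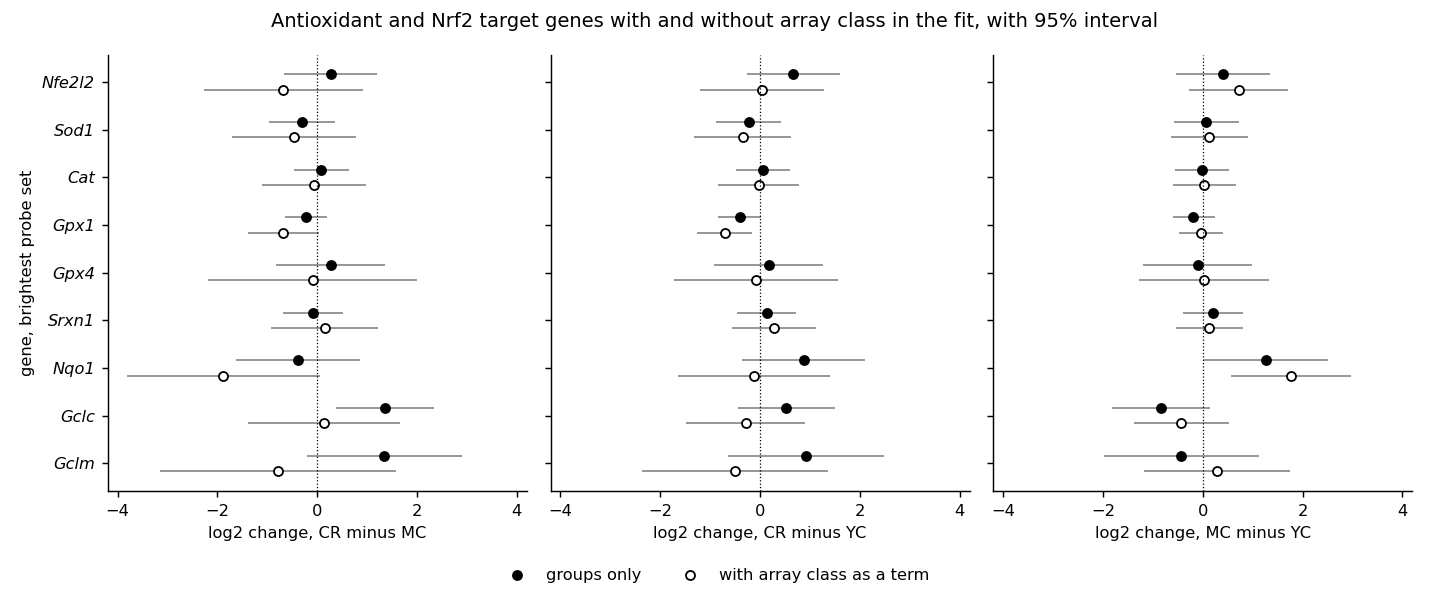
Log2 change with 95% interval of the 9 measured genes for CR minus MC, CR minus YC and MC minus YC, from a fit of the groups only (filled) and with array class as a term (open). The open points of Nqo1, Gclc and Gclm lie far to the left of the filled ones in the comparison of CR with MC. YC 2, the lowest YC array for each of them, is among the arrays that set the class term.

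Further genes of the pathway were taken from 5 lists, and none of their genes passed the threshold in limma in any comparison. For CR over MC, an unadjusted p under 0.05 was found in 2 Nrf2 regulators, 2 genes of glutathione use and supply, 1 of NADPH supply, 2 of iron, haem and detoxification and no thioredoxin or peroxiredoxin gene, against 17.3% of all genes. For MC over YC it was found in none, against 2.95% of all genes, and for CR over YC in 1 regulator and 1 glutathione gene, against 11.2% of all genes. Per list, 0% to 25% of the measured genes were so found for CR over MC. Among 8 measured regulators of Nrf2, 2 had positive and 6 negative log2 changes for CR over MC, with a median of -0.23. Nfe2l1, a relative of Nrf2 that binds the same elements, had -0.61 ± 0.22 (adjusted p = 0.21) with CR below all MC arrays, and Mafk, a small Maf partner, had -0.79 ± 0.29 (adjusted p = 0.212), likewise without overlap. With class as a term they were -0.05 ± 0.35 and -0.10 ± 0.46, and with arrays centred on their median Nfe2l1 was 0.36, where the median over all probe sets was 0.58. With array weights they were -0.64 (adjusted p = 0.0431) and -0.73 (adjusted p = 0.0441). That setting called 3397 of all 27022 probe sets. Between MC and YC, 5 of the 8 were positive. The first of them by p, Mafg, had 1.72 ± 0.93, which was 0.28 without YC 2.

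Among 18 measured genes of glutathione use and supply, 10 had positive and 8 negative log2 changes for CR over MC, with a median of 0.26, or -0.18 with class as a term. Gstm3, a glutathione S-transferase, had log2 values of 10.39, 10.22 and 10.18 in CR, 11.22, 11.61 and 12.38 in MC and 10.49, 10.79 and 11.52 in YC. CR lay below both controls, and the log2 change for CR over MC was -1.47 ± 0.37 with an adjusted p of 0.146, or 0.0323 with CR and MC alone in the fit and 0.049 without YC 2. With class as a term it was -0.82 ± 0.62, with an adjusted p of 1. The fits with CR and MC alone and without YC 2 called 1846 and 987 of all 27022 probe sets. Gstp1, another transferase, had -0.42 ± 0.18 (adjusted p = 0.253), which was -0.26 without MC 3. With arrays centred on their median Gstp1 was 0.52, where the median over all probe sets was 0.58. Between MC and YC, 8 of the 18 were positive, and Gstm3 had 0.81 ± 0.37, or 0.48 without MC 3. Gsta2 had -0.75 ± 0.49, or -0.22 without MC 3 and -1.35 without MC 1. Between CR and YC, Gstp1 had -0.47 ± 0.18 and Gpx8, a peroxidase of the endoplasmic reticulum, 0.77 ± 0.40, or 0.32 without YC 2.

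NADPH is the reductant that glutathione and thioredoxin reductases use. All 5 measured genes of the NADPH supply list had positive log2 changes for CR over MC, against 54.6% of all genes. Their median was 0.21, against 0.06 over all genes, and with class as a term 2 of the 5 were positive. Tkt, the transketolase gene, had 0.67 ± 0.26 (adjusted p = 0.222), and Me1, the cytosolic malic enzyme gene, had 0.62 ± 0.39, which was 0.36 without MC 3 and -0.67 ± 0.53 with class as a term. The CR arrays of Tkt were at 15.09, 16.16 and 16.15, so that CR 1 lay within the MC range of 15.07 to 15.18, and the change was 1.02 without CR 1. Between MC and YC, 3 of the 5 were positive, and Idh1, the cytosolic isocitrate dehydrogenase gene, had 0.93 ± 0.57, or 0.08 without YC 2, and Pgd -0.24 ± 0.21, or -0.10 without it.

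The thioredoxin and peroxiredoxin list also held glutaredoxins, sestrins, Ccs and Park7. Among its 11 measured genes, 4 had positive and 7 negative log2 changes for CR over MC, with a median of -0.02. Ccs, the copper chaperone of Sod1, had log2 values of 11.40, 11.14 and 11.12 in CR, 10.75, 10.54 and 7.74 in MC and 11.13, 9.53 and 11.05 in YC, and a log2 change for CR over MC of 1.54 ± 0.72 (adjusted p = 0.281). CR lay above MC without overlap, and the change was 0.57 without MC 3 and 0.70 ± 1.32 with class as a term. Glrx5 had -0.42 ± 0.22, or -1.03 ± 0.32 with class as a term. Between MC and YC, 7 of the 11 were positive, with Glrx at 1.63 ± 0.93, or 0.16 without YC 2, and Park7 at 0.50 ± 0.27, or 0.19 without it.

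Among 12 measured genes of iron, haem and detoxification, 7 had positive and 5 negative log2 changes for CR over MC, with a median of 0.15. Blvra, which encodes biliverdin reductase and acts after haem oxygenase, had 11.58, 11.46 and 11.66 in CR, 12.12, 11.97 and 12.36 in MC and 12.03, 12.01 and 12.02 in YC. CR lay below both controls, with a log2 change for CR over MC of -0.58 ± 0.21 (adjusted p = 0.208) and of -0.60 ± 0.37 with class as a term. With arrays centred on their median it was 0.20, where the median over all probe sets was 0.58. Osgin1, a stress-response gene, had -0.92 ± 0.40, which was -0.58 without MC 3 and -0.32 ± 0.69 with class as a term. Between MC and YC, 8 of the 12 were positive, and Hmox2, the constitutive haem oxygenase, had -0.32 ± 0.19, or -0.20 without MC 2, and Ugdh -0.31 ± 0.23, or -0.16 without MC 1. Between CR and YC, Fth1, the ferritin heavy chain gene, had 0.51 ± 0.25, or 0.32 without YC 2, with CR above all YC arrays.

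**Figure D5:**
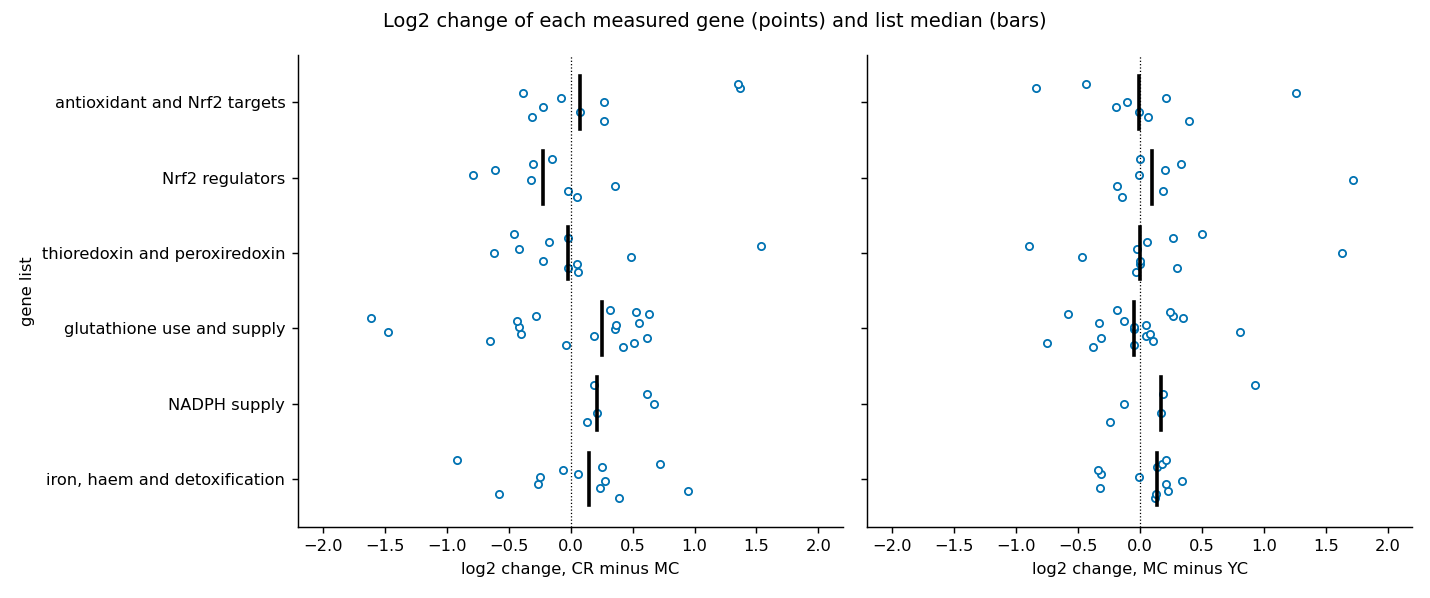
Log2 change of each measured gene (points) and list median (bars) for the 9 antioxidant and Nrf2 target genes and the 5 lists, for CR minus MC on the left and MC minus YC on the right. Most genes lie within 1 log2 unit of 0, and Gclc and Gclm at 1.37 and 1.35 lie furthest right among the 9 in the comparison of CR with MC.

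The tissue on the arrays was checked through markers of the cochlea and of neighbouring tissue. Of 16 cochlea markers, Kcne1, Slc26a5, Tecta and Pou4f3 did not pass the filter. The other 12 passed, as did 13702 of all 18193 genes. The count of these 12 therefore does not show how far the labelled tissue was represented. Of these 12, 9 had higher values in CR than in MC, 7 without overlap and none past the threshold in limma (6 at an unadjusted p under 0.05), with a median log2 change of 0.98, or 0.35 with class as a term. The summed signal of the 16 was 124964 to 184682 in CR, 73525 to 88414 in MC and 58107 to 102836 in YC. Among all genes, 0.139% passed the threshold in limma between CR and MC, 17.3% had an unadjusted p under 0.05 and 36.6% did not overlap. Skeletal muscle markers had lower values in CR than in MC in 15 of 15 genes, 12 of them past the threshold, and their summed signal was 249082 to 370871 in CR, 981550 to 1355370 in MC and 658202 to 1327377 in YC. Their median log2 change was -2.22, or -1.51 with class as a term, where none was called. Brain markers had higher values in CR in 13 of 14 genes, none past the threshold in limma and 11 at an unadjusted p under 0.05, with sums of 63037 to 120891 in CR, 28929 to 34677 in MC and 29768 to 52398 in YC. The median log2 change of the brain markers was 1.46, or 0.87 with class as a term. The sums of 6 erythroid markers were 38373 to 56278 in CR, 53914 to 79389 in MC and 52713 to 85813 in YC, and those of 11 macrophage markers were 221957 to 234895 in CR, 175638 to 265016 in MC and 196742 to 257550 in YC. No marker was at 0 on any array. The sums of the muscle, brain and cochlea markers thus did not overlap between the CR and MC arrays, as the values of Gclc and Gclm did not, and their part in the values of Gclc and Gclm was not tested. In whole tissue, fewer cells of a type and less RNA per cell cannot be told apart.

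The genes most like Gclc, Gclm and Nqo1, the 3 with the widest range of group means among the 9 members past the filter, were found by the mean absolute difference of log2 values over the 9 arrays, after subtracting each gene's own mean, among 13701 genes. The nearest to Gclc were N4bp2l1 (0.19) and Fam120aos (0.20), and the nearest to Gclm were Lrg1 (0.23) and Nit2 (0.24). The nearest to Nqo1 were Brf2 (0.12) and Tmem198 (0.17). On YC 2, Brf2 and Tmem198 had log2 values of 7.49 and 7.35 and Nit2 had 7.00, each the lowest of the 9 arrays, as Nqo1 and Gclm had theirs. The choice by likeness over all 9 arrays, YC 2 included, favours such a shared low, so it is no separate observation.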

How the data were processed

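Per the labels, each of 9 samples was hybridised as biotin-labelled cRNA of TRIzol-extracted RNA to 1 Affymetrix array. Each probe set has a linear intensity in the deposited table, and the submitters' processing notes name GCOS 1.3. The sources used here do not state the signal algorithm or a scaling target. Of 45037 probe sets, 34945 had 1 symbol, 932 several and 9160 are unnamed here.

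Here log2(signal + 16) was quantile normalized and probe sets under the 40th percentile of their mean were dropped, leaving 27022. Group means over all 9 arrays were fitted with lmFit and eBayes (trended variance) of limma 3.58.1 in R 4.3.3, with Benjamini-Hochberg adjustment over all probe sets left. The code was checked on simulated data. Precision is limited by the number of arrays, with a median SE of 0.43 for a log2 change.

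The genes, lists and tests were chosen with earlier results of these data known. All 10 members are named. From each pathway list, the 2 genes with the smallest p per comparison are eligible to be named. Replicate numbers did not pair the arrays: same-numbered arrays correlated at -0.29 to 0.27 in their deviations from the group means, with 2 of 9 pairs over 0.1. Symbols were matched to RefSeq for 34741 probe sets. Alternatives covered pseudocount, filter, scaling, variance trend, array weights, groups in the fit, replicate block, array class, array median and each array left out.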

Additional observations from a re-analysis of the deposited data

How the results depend on the processing

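The count of all probe sets called between CR and MC was 25 and ranged widely with the processing. It was 0 with arrays centred on their median, 7 with the table as deposited, 0 without a variance trend, 3397 with array weights, 1846 with CR and MC alone in the fit, 0 with the replicate block, and 0 with array class or with array median in the fit. Leaving out 1 array gave 0 to 987, with 0 without CR 2, CR 3, MC 1 or MC 3, 2 without CR 1, 48 without MC 2, 251 without YC 1 and 987 without YC 2. Between CR and YC it was 0, and it was 0 to 363 with 1 array left out, with 363 without YC 1 and 5 without MC 2. Within the low class YC is YC 1 alone, so no count is given for it. The count of member genes called between CR and MC was 0 in each of these settings except array weights, where it was 1 (Gclc). Array weights also called probe set 2 of Gclc, Gclm and Gpx4, probe set 4 of Srxn1, and Mafk, Nfe2l1 and Gstm3, and the estimate of the weights stopped before it converged. The replicate block changed no call of a member.

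Signs turned as follows, in log2 change, and the cause was not tested. With class as a term, values for CR over MC were -0.68 for Nfe2l2, -0.07 for Cat, -0.61 for its probe set 2, -0.09 for Gpx4, 0.15 for Srxn1, -0.78 for Gclm and -0.67 for Me1. With the array median as a covariate they were -0.64 for Nfe2l2, -0.50 for Cat probe set 2, 0.03 for Srxn1, -0.55 for Gclm and -0.19 for Me1. With class as a term, and equally within a class, values for MC over YC were 0.03 for Cat, 0.02 for Gpx4 and 0.28 for Gclm, and values for CR over YC were -0.03 for Cat, -0.08 for Gpx4, -0.12 for Nqo1, -0.29 for Gclc, -0.50 for Gclm, -0.45 for Glrx and -0.05 for Me1. With the array median, Gclm was 0.22 for MC over YC, and for CR over YC Gclc was -0.13, Gclm -0.32 and Glrx -0.40.

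Centring arrays on their median, which moved the median of all probe sets to 0.58 for CR over MC, 0.39 for CR over YC and -0.15 for MC over YC, gave for CR over MC 0.65 for Sod1, 0.38 for its probe set 2, 0.66 for Gpx1, 0.56 for Srxn1, 0.01 for Nqo1, 0.36 for Nfe2l1, 0.54 for Glrx5, 0.52 for Gstp1 and 0.20 for Blvra. For CR over YC it gave 0.49 for Sod1, 0.23 for Gpx1, 0.31 for Nfe2l1, 0.27 for Glrx5, 0.25 for Gstp1 and 0.04 for Blvra, and for MC over YC -0.07 for Nfe2l2, -0.16 for Sod1, -0.01 for its probe set 2 and -0.40 for Cat probe set 2. The table as deposited gave 0.03 for Sod1, 0.04 for Gpx1 and -0.52 for Srxn1 probe set 3 for CR over MC, 0.08 for Sod1 for CR over YC and -0.19 for Cat probe set 2 for MC over YC. Array weights gave -0.04 for Sod1 and -0.08 for Cat probe set 2 for MC over YC. Averaging a gene's probe sets gave -0.28 for Sod1 and 0.02 for Cat for MC over YC, and -0.25 for Nfe2l2 and 0.09 for Sod1 for CR over MC.

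With 1 array left out, the following crossed 0. For MC over YC these were Nfe2l2 (-0.21 to 0.72), Sod1 (-0.21 to 0.30), its probe set 2 (-0.10 to 0.58), Cat (-0.23 to 0.26), its probe set 2 (-0.61 to 0.45), Gpx4 (-0.64 to 0.36), Srxn1 (-0.02 to 0.34) and Gclm (-1.41 to 0.28). For CR over MC these were Cat (-0.20 to 0.30), Gpx4 (-0.19 to 0.65) and Srxn1 (-0.21 to 0.15). For CR over YC these were Cat (-0.02 to 0.21), Gpx4 (-0.37 to 0.58), Gclm (-0.06 to 1.63) and Glrx (-0.46 to 1.75).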
